A study of Mus musculus with 12 samples.

Results

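The histone marks H3K27ac and H3K27me3 were examined at 9 genes that set limb identity and skeletal position, in mesenchymal stem cells (MSCs) of young and old mice. The genes were Tbx2, Tbx3, Tbx4, Tbx5, Tbx15, Tbx18, Pitx1, Shox2 and Prrx1, of 21911 protein-coding genes in the annotation. The first 6 encode T-box factors, whereas Pitx1, Shox2 and Prrx1 encode homeodomain factors. Each gene was given a window of its GENCODE gene body plus 50 kb on each side, and every deposited region that overlapped a window was taken. This gave 25 of 31617 H3K27ac regions and 21 of 28047 H3K27me3 regions. All 9 windows held H3K27ac regions and 7 held H3K27me3 regions, since none of that mark lay in the windows of Tbx15 and Prrx1. The windows of Tbx2 and Tbx4 overlap, and 4 regions on chromosome 11 were counted for both genes. Those of Tbx3 and Tbx5 do not overlap, but 1 long H3K27me3 region on chromosome 5 reaches into both and was counted for both.

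CUT&RUN, in which an antibody directs a nuclease to a chromatin mark so that the DNA around it is released and sequenced, was performed on MSCs, stromal progenitors of bone, cartilage and fat cells. Young animals were 3-5 months old and old animals 18-22 months old, and the cells of both ages were grown only at 2% O2. There were 3 libraries per mark and age, and each sample was split between the antibodies, as the labels describe. No genotype, strain, sex, bone or limb of origin was given in the labels, and nothing stated that replicates came from separate animals, so p-values measure only the spread between these samples. Library depth was 2750953 to 5541429 reads for H3K27ac and 3622108 to 9947515 reads for H3K27me3. Old replicate 2 was the shallowest library of each mark. Reads in the deposited regions made up 41.35%, 33.72% and 39.97% of young and 33.37%, 34.64% and 39.22% of old H3K27ac libraries. For H3K27me3 the shares were 62.28%, 66.61% and 66.63% in young and 60.75%, 59.56% and 53.78% in old libraries, all old ones below all young ones. The signal of 3 reads, used as a floor, was 1.08 to 2.18 in the H3K27ac libraries and 0.603 to 1.66 in the H3K27me3 libraries. As a check of the labelled cell type, the transcription start sites (TSSs) of 6 of 6 stromal markers (Pdgfra, Ly6a, Thy1, Eng, Nt5e and Cd44) lay in an H3K27ac region. This held for 1 of 6 blood markers (Cd68) and 1 of 3 endothelial markers (Pecam1), and for 52.49% of all protein-coding genes. By limma, 0 marker loci were called with age in either mark, against 0.679% of all H3K27ac loci and 0.436% of all H3K27me3 loci. An unadjusted p under 0.05 was reached by 1 marker locus in H3K27ac and 0 in H3K27me3, against 12.1% and 14.4%.

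In the embryo, T-box and homeodomain factors are expressed in restricted territories and give mesenchyme its position along the body and the limb. Tbx5 is required for forelimb outgrowth, and Tbx4 and Pitx1 for hindlimb outgrowth and identity. Tbx2 and Tbx3 are transcriptional repressors that pattern the limb bud and other organs. Tbx15 and Tbx18 act in the skeletal mesenchyme and the somites, Shox2 in the proximal limb skeleton, and Prrx1 marks limb mesenchyme as a whole. Adult stromal cells can retain part of such a positional programme in their chromatin. H3K27ac is acetylation of lysine 27 of histone H3 and marks active promoters and enhancers, whereas H3K27me3, trimethylation of the same residue by Polycomb complexes, marks silenced developmental genes. A single histone tail cannot carry both modifications at this residue, so a region called for both holds them on different tails.

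The promoter sequences of 4 of the 9 genes were found in the RefSeq promoter table of GRCm38.p6, as windows of 250 bases before and 50 after the annotated start. Those of Tbx4 and Prrx1 are shown as a contrast, since the Tbx4 window lay in regions of both marks, and the Prrx1 window in a region of H3K27ac without any H3K27me3 region nearby. Both are written from 5′ to 3′ on the strand of the gene, with CpG dinucleotides in capitals.
Tbx4 chr11:85896515-85896814 (plus strand): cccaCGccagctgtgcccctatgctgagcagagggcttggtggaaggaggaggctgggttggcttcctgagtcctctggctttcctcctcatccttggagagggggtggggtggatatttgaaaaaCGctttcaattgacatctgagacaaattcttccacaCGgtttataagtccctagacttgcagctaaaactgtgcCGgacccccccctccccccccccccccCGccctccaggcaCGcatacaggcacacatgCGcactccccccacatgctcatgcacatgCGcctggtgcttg
Prrx1 chr1:163313601-163313900 (minus strand): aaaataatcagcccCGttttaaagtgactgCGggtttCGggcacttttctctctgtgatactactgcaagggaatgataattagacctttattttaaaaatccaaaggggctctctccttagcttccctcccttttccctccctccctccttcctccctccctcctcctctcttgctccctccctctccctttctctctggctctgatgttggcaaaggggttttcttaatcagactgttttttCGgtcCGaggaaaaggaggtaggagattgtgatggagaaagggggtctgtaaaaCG
The Tbx4 window held 8 CpG dinucleotides and 59.0% G and C, and the Prrx1 window held 6 CpG dinucleotides and 47.7% G and C. The windows of Shox2 and Tbx18 held 11 and 15 CpG dinucleotides, against a median of 7 over all 32851 windows, and both lay in an H3K27ac region outside H3K27me3. On both strands, the T-box half-site GGTGTGA was in none of the 4 windows and in 3.98% of all windows. The homeodomain core TAATTA occurred once in the Prrx1 window and in 5.29% of all windows. The bicoid-type core TAATCC, the form preferred by factors such as Pitx1, was in none of the 4 and in 7.06% of all windows.

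The windows ranged from H3K27ac regions alone to mostly H3K27me3 regions. Prrx1 and Tbx15 had 63.0% and 58.0% of their windows in H3K27ac regions and 0% in H3K27me3 regions. Tbx4, Pitx1, Tbx3 and Tbx2 had 84.6%, 83.0%, 70.8% and 67.6% in H3K27me3 regions and 24.7%, 9.85%, 15.3% and 14.1% in H3K27ac regions. Tbx5 had 58.4% in H3K27me3 and 3.28% in H3K27ac, the lowest H3K27ac share of the 9. Tbx18 (33.5% H3K27ac, 53.7% H3K27me3) and Shox2 (22.8% and 27.3%) carried sizeable shares of both. Over all protein-coding genes, the median window had 18.05% in H3K27ac, 21.75% in H3K27me3 and 0% in both. The share covered by both marks at Tbx4, 20.1%, was higher than at 99.8% of genes, that at Pitx1, 8.997%, higher than at 99.5%, and that at Tbx2, 8.64%, higher than at 99.5%. TSSs lay in an H3K27ac region at 7 of the 9 genes, all but Tbx2 and Tbx5, against 52.49% of all genes. They lay in an H3K27me3 region at 4, namely Tbx2, Tbx4, Tbx5 and Pitx1, against 29.15%. At Tbx4 and Pitx1 the TSS lay in both, as at 4.73% of all genes.

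**Figure D1:**
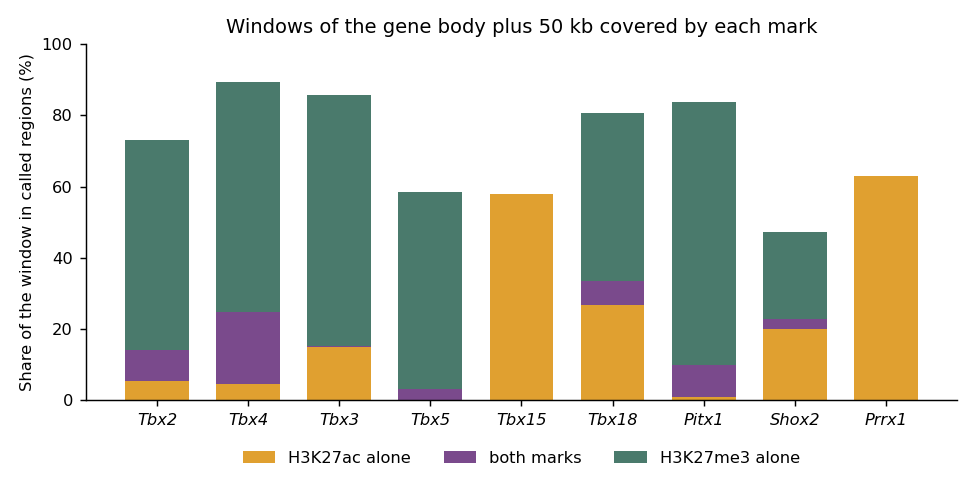
Share of each gene's window (gene body plus 50 kb on each side, vertical axis in %) that lay in deposited regions of H3K27ac alone, of H3K27me3 alone, or of both, per gene. Prrx1 (63.0%) and Tbx15 (58.0%) had only H3K27ac, whereas Tbx4 had the largest share with both marks (20.1%).

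Per kb of region, and among the regions over or nearest the TSSs of the 9 genes, young cells had the highest H3K27ac signal at Prrx1 and the highest H3K27me3 signal at Tbx3. In the H3K27ac regions over the TSS, or nearest to it, the young mean of the scaled signal per kb was 4.28 at Prrx1 and 3.92 at Pitx1, higher than in 98.9% and 97.6% of all H3K27ac regions. It was 3.18 at Tbx15, 2.66 at Shox2, 2.50 at Tbx3 and 1.94 at Tbx18, and only 1.26 at Tbx5, which exceeded 1.46% of regions. For H3K27me3, the region upstream of Tbx3 had 4.37 per kb in young cells, higher than 99.4% of all regions of the mark. The domain shared by Tbx3 and Tbx5 had 3.32 per kb and the region over Tbx2 3.09, whereas Tbx18 and Shox2 had 1.62 and 1.59. The Prrx1 and Tbx15 H3K27ac regions were also broad, at 85.0 kb and 111.5 kb, longer than 98.9% and 99.4% of H3K27ac regions.

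The question of the design was whether these marks differ between young and old MSCs. Signals given from here on are the deposited values after scaling of the 6 libraries of a mark, without division by length, and fold changes are old over young on the scale of log2(signal + 0.5). At a limma adjusted p under 0.05, 0 of 25 H3K27ac regions were called, against 0.0822% of all regions, and edgeR called 1 and DESeq2 0. No share over all regions is given for edgeR and DESeq2. Of the 25 regions, 3 had an unadjusted limma p under 0.05, which is 12% against 9.60% of all regions. In 2 there was no overlap of old and young libraries, 8% against 14.5%. The 25 log2 fold changes ran from -1.32 to 0.44 with a median of -0.18, beside -0.0028 over all regions, and 18 were below 0. For H3K27me3, 1 of 21 regions was called, and fell in old cells, against 0.488% of all regions. An unadjusted p under 0.05 was reached by 9 of 21 (5 higher and 4 lower in old), which is 42.9% against 13.9% of all regions. In 11 of 21 (5 higher and 6 lower), the old and young libraries did not overlap, which is 52.4% against 19.1%. Most of the regions in both counts lie around Tbx2 and Tbx4 or around Tbx3 and Tbx5, so they are not separate observations. In young signal per kb, the 4 lower regions with an unadjusted p under 0.05 exceeded 99.4%, 97.4%, 96.5% and 69.5% of all regions. The 5 higher ones exceeded 70.9%, 58.4%, 5.22%, 3.74% and 1.16%. All old H3K27me3 libraries had a smaller share of reads in regions than the young ones, and its part in these changes was not tested. The median log2 fold change of H3K27me3 was 0.03, beside -0.0077 over all regions.

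**Figure D2:**
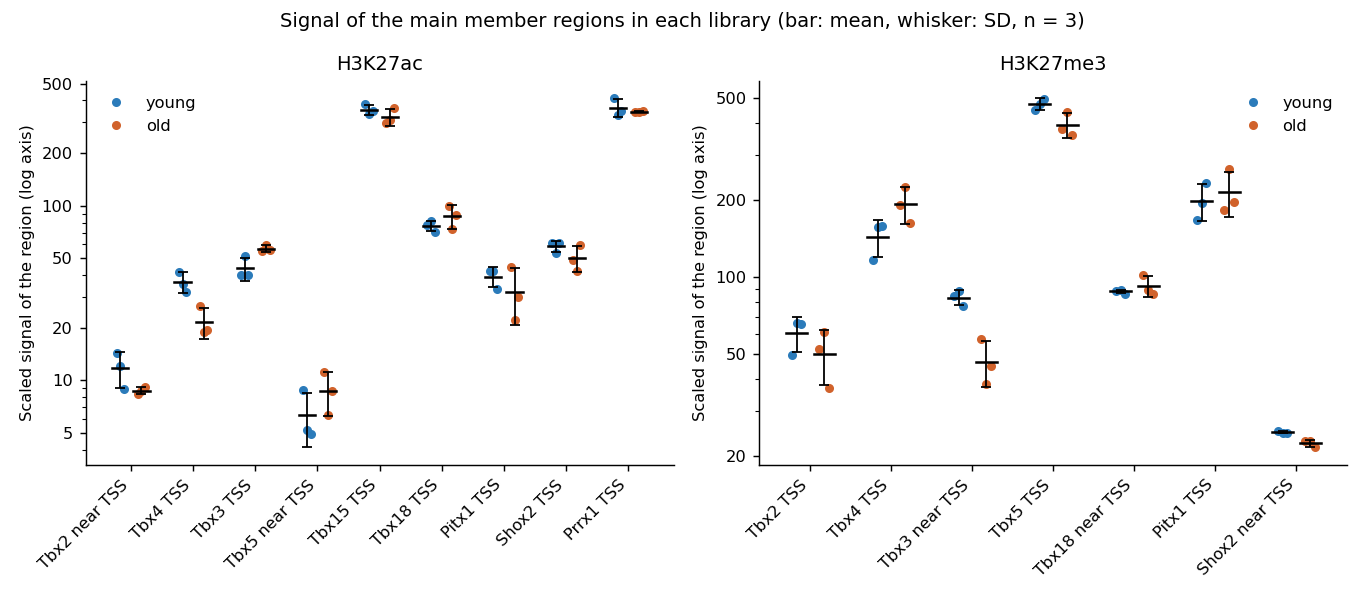
Scaled signal (log axis) of the H3K27ac (left) and H3K27me3 (right) region over each gene's TSS, or nearest to it within 10 kb, in every library. Bars are means and whiskers SDs of 3 libraries. The column Tbx5 TSS of H3K27me3 is the domain shared with Tbx3. Young and old points do not overlap at Tbx4 and Tbx3 in H3K27ac, nor at Tbx4, Tbx3, Tbx5 and Shox2 in H3K27me3.

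The called region lay just upstream of Tbx3, the gene of a repressor mutated in ulnar-mammary syndrome (gene body chr5:119670669-119684724). It spanned 19.0 kb of H3K27me3 at chr5:119649001-119668000 and ended 2.67 kb before the TSS, in no gene body. Its scaled signal was 84.3, 87.7 and 76.9 in young replicates 1 to 3, and 57.0, 38.1 and 44.7 in old replicates 1 to 3. All 3 old libraries lay well below all 3 young ones, on 67 to 436 reads per library. The mean fell from 83.0 ± 5.54 to 46.6 ± 9.58 (SD, n = 3), a log2 fold change of -0.84 with an SE of 0.13 (limma adjusted p = 0.0046), and it ranked 9 of 28047 regions by p. The direction held under every alternative, with log2 fold changes from -0.9965 to -0.7077. The call was lost without young replicate 1 (adjusted p = 0.0625), without young replicate 2 (0.0586) and with limma without trend and robust moderation (0.153), and edgeR and DESeq2 both made it.

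The other H3K27me3 around Tbx3 was lower in old cells as well, without passing the test. Downstream of the gene, chr5:119686001-119725500 had 118.7, 130.4 and 119.8 in young and 107.8, 96.1 and 91.9 in old libraries, which did not overlap (log2 fold change -0.32, SE 0.09, limma adjusted p = 0.121). The domain beyond it, chr5:119727001-119870000, spanned 143.0 kb from the intergenic space over the Tbx5 TSS into the Tbx5 gene body. It had 448.0, 476.6 and 498.0 in young and 380.7, 441.9 and 357.9 in old libraries, again without overlap (log2 fold change -0.27, SE 0.09, limma adjusted p = 0.136). Without old replicate 2, the shallowest library, this domain passed at an adjusted p of 0.0343. A pair of regions farther upstream, 25.2 and 39.7 kb from the TSS, had overlapping libraries and log2 fold changes of -0.13 and -0.05.

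H3K27ac at Tbx3 went the opposite way in its values. The region over all 3 annotated Tbx3 TSSs, chr5:119669001-119686500, had 39.9, 51.4 and 40.1 in young and 55.0, 59.8 and 55.6 in old libraries. The old libraries all lay above the young ones, with a log2 fold change of 0.38 and an SE of 0.13, but the test was not passed (limma adjusted p = 0.287). This region covers the whole Tbx3 gene body and meets the downstream H3K27me3 region over 0.5 kb. At Tbx5, the forelimb gene (gene body chr5:119832668-119885219), the only H3K27ac region lay 0.838 kb inside the TSS, within the H3K27me3 domain. It held few reads, 8 to 28 per library, with 8.82, 5.19 and 4.93 in young and 11.2, 6.29 and 8.66 in old libraries, which overlapped (log2 fold change 0.44, SE 0.30, limma adjusted p = 0.687). A short H3K27me3 region 98.8 kb beyond the Tbx5 TSS had overlapping libraries and a log2 fold change of -0.55 (SE 0.37).

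At Tbx4, the hindlimb T-box gene (gene body chr11:85886422-85916097), H3K27ac had lower and H3K27me3 higher values in old cells. H3K27ac at chr11:85884501-85898500 covered all 3 Tbx4 TSSs, among them the start of the promoter window printed above. It had 41.8, 35.8 and 32.2 in young and 26.7, 18.9 and 19.4 in old libraries. Old and young did not overlap, and the mean was 1.69 times higher in young cells, on 24 to 128 reads per library. The log2 fold change of -0.75 (SE 0.17) ranked 41 of 31617 and narrowly missed the threshold (limma adjusted p = 0.0607). It passed in edgeR (0.0227), on the signal as deposited (0.0172) and with a pseudocount of 2 (0.0386). It also passed without the lowest 25% of regions (0.0465) and without old replicate 1 (0.0307). It did not pass with TMM scaling (0.0589), with a pseudocount of 0.1 (0.0899), in DESeq2 (0.752) or in limma without trend and robust moderation (0.461). Leaving out any of the other 5 libraries gave adjusted p-values of 0.111 to 0.5475. A small H3K27ac region in a Tbx4 intron, chr11:85903501-85905500, had 4.25, 5.77 and 3.95 in young libraries and 3.19, 0 and 4.08 in old libraries. The 0 was that of the shallow old replicate 2, and the test was not passed (limma adjusted p = 0.487).

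The H3K27me3 domain that encloses these regions, chr11:85857501-85939000, is 81.5 kb long and covers the whole Tbx4 gene body. It had 116.5, 157.1 and 158.0 in young and 191.0, 225.8 and 162.9 in old libraries, with all old libraries above the young ones by a narrow margin. Its log2 fold change was 0.43 with an SE of 0.12 (limma adjusted p = 0.121, edgeR 0.0491). The pair of H3K27me3 regions further downstream, at chr11:85942001-85952000 and chr11:85955001-85969000, had log2 fold changes of 0.57 (SE 0.18) and 0.76 (SE 0.20), also with no overlap. The latter had 12.4, 17.1 and 14.9 in young and 18.6, 35.3 and 24.7 in old libraries (limma adjusted p = 0.0803, edgeR 0.0381). Of the 3 H3K27ac regions downstream of Tbx4, each overlapping these domains, log2 fold changes were -0.36, 0.19 and -0.25 and all libraries overlapped.

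Tbx2, the neighbour of Tbx4 (gene body chr11:85832551-85841948), encodes a repressor related to Tbx3. Its TSS lay in H3K27me3 only, at chr11:85824001-85843500, with 49.6, 66.0 and 65.4 in young and 52.4, 60.9 and 36.8 in old libraries. These overlapped, with a log2 fold change of -0.29 (SE 0.16, limma adjusted p = 0.433). The nearest H3K27ac region began 9.95 kb downstream of the TSS, in the gene body of Gm11444, with 14.4, 12.1 and 8.88 in young and 8.37, 8.65 and 9.17 in old libraries (log2 fold change -0.39, SE 0.25, limma adjusted p = 0.670). The largest H3K27me3 difference at any of the 9 genes was in a region of 2.0 kb, chr11:85806001-85808000, 24.6 kb upstream of Tbx2 and within Bcas3. It had 2.77, 4.02 and 3.66 in young and 1.09, 1.14 and 1.27 in old libraries, on 2 to 20 reads per library, and a log2 fold change of -1.25 (SE 0.34, limma adjusted p = 0.0903). The 3 other H3K27me3 regions in the Bcas3 gene body upstream of Tbx2 had log2 fold changes of 0.03 to 0.09 with overlapping libraries.

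**Figure D3:**
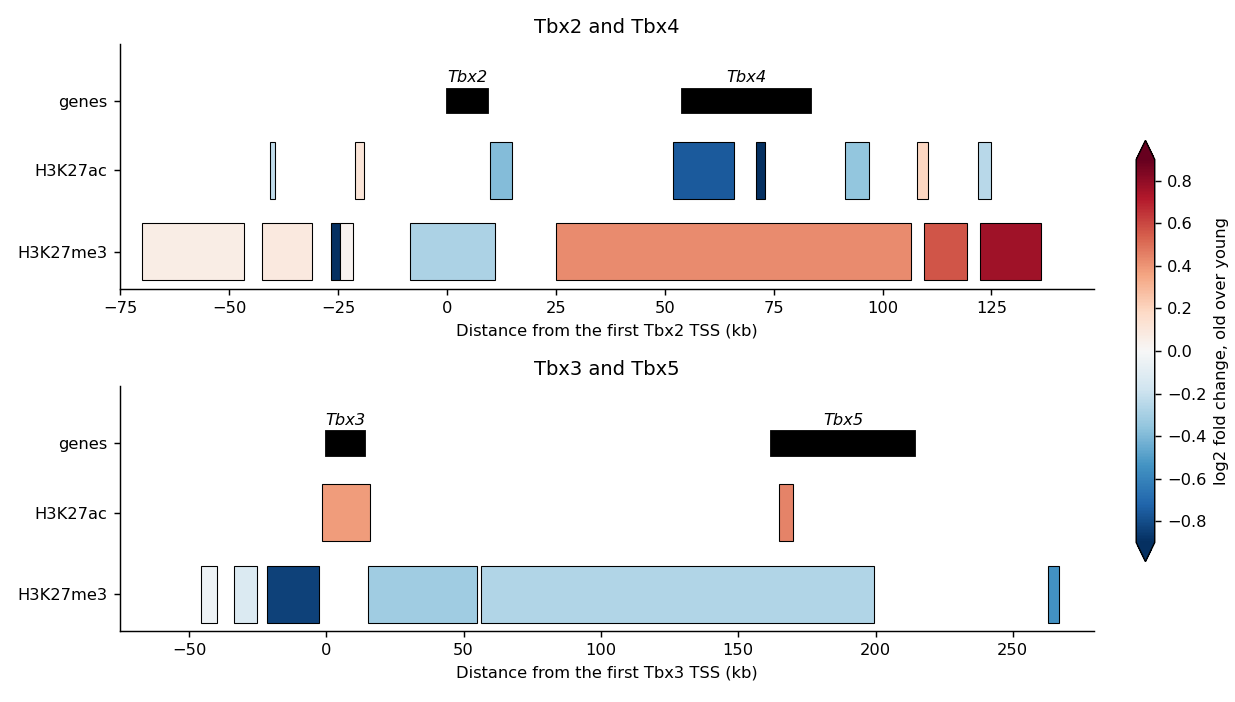
Regions of H3K27ac and H3K27me3 around Tbx2 and Tbx4 (top) and Tbx3 and Tbx5 (bottom), as boxes to scale by distance from the first TSS of the left gene (kb), coloured by log2 fold change of old over young. H3K27me3 around Tbx3 and Tbx5 has values below 0 (the called region -0.84), and that over and beyond Tbx4 values above 0 (0.43 to 0.76).

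Pitx1, which lies upstream of Tbx4 in hindlimb identity (gene body chr13:55825051-55836192), carried both marks at its TSS, and neither passed the test. Its H3K27ac region, chr13:55823001-55833000, had 42.1, 42.1 and 33.2 in young and 44.6, 22.0 and 30.1 in old libraries. Old replicate 1 was the highest and old replicate 2 the lowest of the 6 (log2 fold change -0.33, SE 0.18, limma adjusted p = 0.591). The H3K27me3 domain, chr13:55806501-55895000, had 166.9, 195.0 and 233.3 in young and 183.4, 263.9 and 195.6 in old libraries (log2 fold change 0.11, SE 0.13, limma adjusted p = 0.777), and its direction turned on the signal as deposited (-0.017) and without young replicate 1 (-0.012) or old replicate 2 (-0.051). A smaller H3K27me3 region 28.4 kb downstream of the TSS, over Catsper3, had 20.74, 20.52 and 17.79 in young and 21.17, 26.73 and 27.58 in old libraries. These did not overlap (log2 fold change 0.34, SE 0.15, limma adjusted p = 0.314).

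Shox2 (gene body chr3:66971727-66981771), needed for the proximal limb bones, had H3K27ac over its TSSs and H3K27me3 beyond its 3′ side. The H3K27ac region, chr3:66967001-66989000, also covers the TSS of Rsrc1, so its signal cannot be assigned to Shox2 alone. It had 61.1, 53.7 and 60.9 in young and 48.6, 42.5 and 59.6 in old libraries, which overlapped (log2 fold change -0.23, SE 0.13, limma adjusted p = 0.591). H3K27me3 33.4 kb downstream of the TSS, chr3:66930501-66945000, had 15.4, 15.9 and 11.5 in young and 20.1, 21.6 and 23.5 in old libraries. The old libraries were all higher (log2 fold change 0.60, SE 0.17, limma adjusted p = 0.0950). The H3K27me3 region closer to the gene, chr3:66954501-66970000, differed little but without overlap, with 24.9, 24.6 and 24.6 in young and 22.7, 22.8 and 21.6 in old libraries (log2 fold change -0.14, SE 0.14, limma adjusted p = 0.700).

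The genes with the broadest H3K27ac had no called difference. Prrx1 (gene body chr1:163245119-163313710) had 410.6, 331.2 and 348.3 in young and 344.0, 342.9 and 350.1 in old libraries over chr1:163238501-163323500. The groups overlapped and the log2 fold change was -0.07 with an SE of 0.07 (limma adjusted p = 0.805), and above 0 without young replicate 1 (0.024). The 3 other H3K27ac regions at Prrx1 had log2 fold changes of -0.18 to 0.09. Tbx15 (gene body chr3:99240381-99354259) had 379.9, 332.4 and 349.6 in young and 296.6, 308.3 and 362.8 in old libraries over chr3:99239501-99351000. Old replicate 3 lay among the young libraries (log2 fold change -0.14, SE 0.07, limma adjusted p = 0.534).

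Tbx18 (gene body chr9:87702800-87731260), which keeps the anterior and posterior parts of the somites apart, had abutting domains of the marks that shared 7.5 kb. H3K27ac over the gene, chr9:87702001-87741500, had 77.1, 81.4 and 71.0 in young and 99.7, 73.1 and 88.2 in old libraries (log2 fold change 0.17, SE 0.11, limma adjusted p = 0.659). The H3K27me3 domain that began 2.74 kb upstream of the TSS, chr9:87734001-87788000, had 88.3, 88.7 and 86.1 in young and 101.9, 88.7 and 85.6 in old libraries (log2 fold change 0.07, SE 0.10, limma adjusted p = 0.817). The sign of the latter turned on the signal as deposited (-0.056) and without old replicate 1 (-0.0084). The old and young libraries overlapped in both of these main regions. A region of 5.0 kb of H3K27me3 47.3 kb downstream of the TSS did not overlap between ages (log2 fold change -0.47, SE 0.24, limma adjusted p = 0.405).

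Summed over all regions of a window, 0 of 9 H3K27ac loci and 0 of 7 H3K27me3 loci were called by limma, against 0.679% and 0.436% of all protein-coding loci with a region. edgeR called 0 and 1 of them and DESeq2 0 and 2, the latter being the H3K27me3 of Tbx3 and Tbx5. No share over all loci is given for edgeR and DESeq2. An unadjusted p under 0.05 was reached by 4 of 9 H3K27ac loci (1 higher and 3 lower in old) against 12.1% of all loci, and by 3 of 7 H3K27me3 loci (1 higher and 2 lower) against 14.4%. Old and young libraries did not overlap at 3 of 9 H3K27ac loci, against 16.6%, and at 3 of 7 H3K27me3 loci, against 19.5%. The lowest adjusted p-values were those of H3K27ac at Tbx4 (log2 fold change -0.44, SE 0.12, limma adjusted p = 0.0561) and Tbx2 (-0.51, SE 0.14, 0.0666), and of H3K27me3 at Tbx3 (-0.33, SE 0.08, 0.0688). The Tbx2 sum includes the region over the Tbx4 TSSs, and with flanks of 10 kb, which leave that region out, its H3K27ac fold change was -0.39 (adjusted p = 0.649). With the same flanks Tbx4 H3K27ac (-0.67, adjusted p = 0.0127) and Tbx3 H3K27me3 (-0.51, adjusted p = 0.0127) passed the threshold. The H3K27me3 locus values of Tbx2 (0.20) and Shox2 (0.18) turned to -0.29 and -0.14 with these flanks. H3K27me3 at Tbx5, -0.27 (SE 0.08, limma adjusted p = 0.189), rests on the domain shared with Tbx3. The Tbx3 sum with flanks of 50 kb also includes that domain whole.

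**Figure D4:**
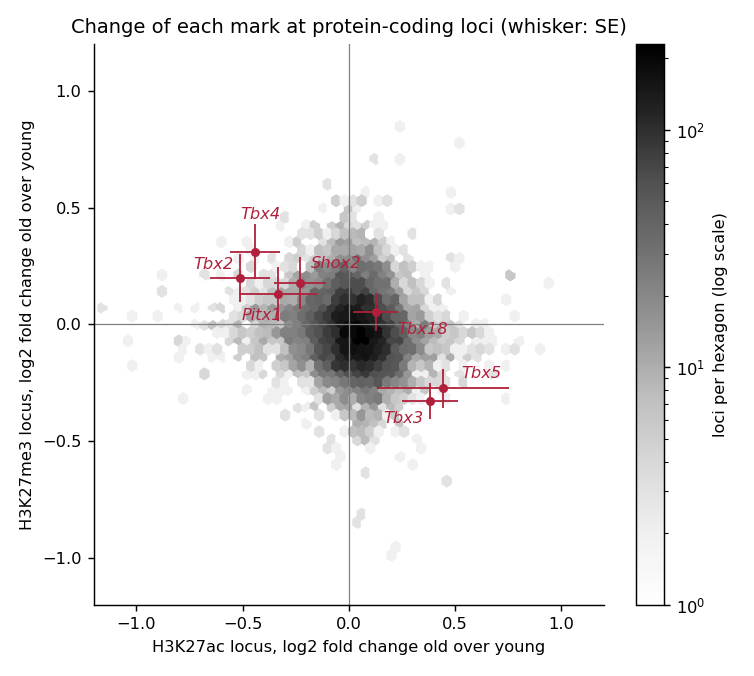
Log2 fold change (old over young) of H3K27ac (horizontal) against H3K27me3 (vertical), each locus being the summed signal of a protein-coding gene's window. Grey hexagons are counts of loci (log scale), red points the 7 genes with both marks, and whiskers SEs. Tbx4, Tbx2, Pitx1 and Shox2 lie at the upper left, Tbx3 and Tbx5 at the lower right, but the H3K27me3 value turns below 0 with flanks of 10 kb at Tbx2 (-0.29) and Shox2 (-0.14) and without old replicate 2 at Pitx1 (-0.017).

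The balance of the marks, the log2 ratio of summed H3K27ac to summed H3K27me3 per sample number and age, is given without a test, because the 2 tables were normalised separately. It exists only for the 7 genes with regions of both marks, and so not for Prrx1 and Tbx15, which had H3K27ac regions alone. Of these 7, only Shox2 was above 0 in young cells, at 0.78 ± 0.18 (SD, n = 3). Tbx18 had -0.57 ± 0.09, close to the median of -0.49 over 15640 loci with both marks, followed by Tbx4 at -1.42 ± 0.46, Tbx2 at -2.26 ± 0.35, Pitx1 at -2.35 ± 0.41, Tbx3 at -4.00 ± 0.18 and Tbx5 at -6.18 ± 0.50. Tbx2 and Pitx1 differed by less than their SDs. The young H3K27me3 sums of Tbx3 and Tbx5, 705.1 and 478.8, each include the whole domain that they share, 474.2. Most of that domain lies outside the Tbx3 window, so the low balance at Tbx3 is not that of its own window alone. From young to old, the mean moved by -0.75 at Tbx4, -0.71 at Tbx2, -0.46 at Pitx1 and -0.41 at Shox2, and by 0.71 at Tbx3, 0.72 at Tbx5 and 0.07 at Tbx18. The median difference over all loci was 0.06. At Tbx4 and Tbx2 the difference was lower than at all but 0.710% and 0.857% of loci, and at Tbx3 and Tbx5 it was higher than at 99.2% of loci. The Tbx5 samples overlapped, with -5.60, -6.40 and -6.53 in young and -5.05, -6.03 and -5.31 in old. The H3K27ac of Tbx5 was 1 region with 8 to 28 reads per library.

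The samples did not overlap at 3 of 7 genes, Tbx2, Tbx3 and Shox2, against 19.3% of all loci. At Tbx3 the 3 young samples had -4.07, -3.80 and -4.14 and the 3 old samples -3.35, -3.32 and -3.21. At Tbx4 the young samples had -0.93, -1.49 and -1.84 and the old samples -2.05, -2.65 and -1.83, so that old replicate 3 lay within the young range by a small margin. At Tbx2 the young samples had -1.87, -2.38 and -2.54 and the old samples -2.75, -3.54 and -2.63. With flanks of 10 kb the difference was -0.10 at Tbx2 and -0.089 at Shox2, but 0.89 at Tbx3. Tbx2 and Tbx4 share regions, as do Tbx3 and Tbx5, so the values of a pair are not independent.

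**Figure D5:**
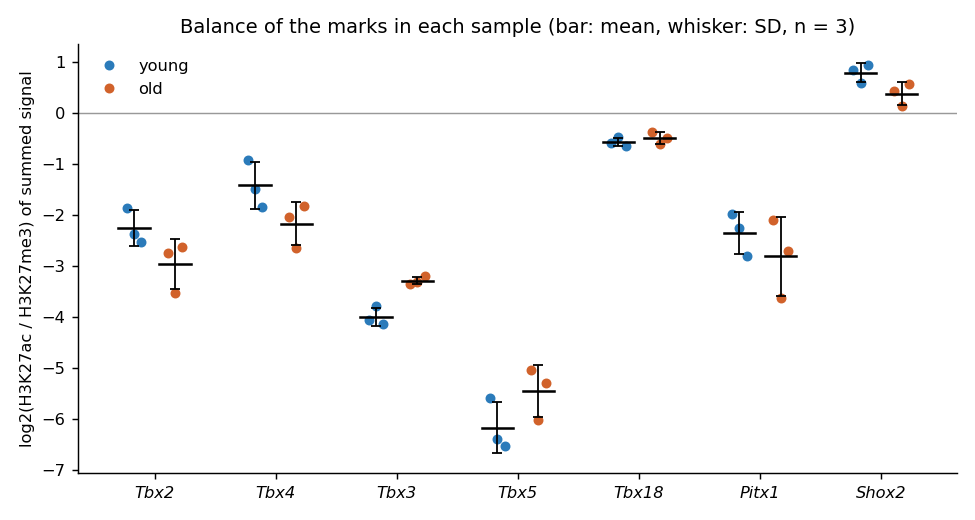
Balance of the marks (log2 of summed H3K27ac over summed H3K27me3, vertical axis) in each young and old sample at the 7 genes with both marks. Bars are means and whiskers SDs of 3 samples. Old samples are lower at Tbx2 and Shox2 and higher at Tbx3 without overlap, and Tbx5 has the lowest values (-6.18 in young).

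Regions of the marks overlapped each other in 13 pairs at these genes, which took in 52.0% of the 25 H3K27ac regions and 52.4% of the 21 H3K27me3 regions. In 9 of the 13 pairs the fold changes of the marks had opposite signs, beside 57.6% of 5042 overlapping pairs in the whole series. Of the 9, 3 share the H3K27me3 domain over Tbx4 and are not separate observations. Of the opposite pairs, 4 were of the Tbx4 domains, where the H3K27ac values were below 0 and the H3K27me3 values above 0, and at Tbx3 and Tbx5 the signs were the other way round in 1 pair each. The remaining 3 pairs were at Tbx2, Tbx18 and Pitx1, with H3K27ac below and H3K27me3 above 0.

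Likeness was the Euclidean distance between the 4 group means of log2 summed signal, over 15627 loci. The loci most like Shox2, with the highest balance of the 7 genes, were Prpf38b (0.143), Gm9857 (0.165) and Scgb2a2 (0.193). Those most like Tbx5, with the lowest balance, were Cbwd1 (0.266), Aox3 (0.303) and Art2b (0.328).

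Other genes of the same families gave the setting. Of 11 further T-box genes (Tbx1, Tbx6, Tbx10, Tbx19, Tbx20, Tbx21, Tbx22, Tbr1, Eomes, T and Mga), 9 had their TSS in H3K27me3 and 2, Tbx6 and Mga, in H3K27ac. Over all protein-coding genes, 29.15% had a TSS in H3K27me3 and 52.49% in H3K27ac. None of the loci of these T-box genes, 9 with H3K27ac and 11 with H3K27me3, was called by limma, against 0.679% and 0.436% of all loci. An unadjusted p under 0.05 was reached by 1 and 4 of them, against 12.1% and 14.4%. The median log2 fold changes were 0.05 and -0.16, beside -0.14 and 0.13 for the loci of the 9 genes and 0.034 and -0.035 over all loci. Of 18 other limb patterning factors (Prrx2, Hand1, Hand2, Lmx1b, Alx1, Alx4, En1, Gli3, Shh, Fgf8, Fgf10, Isl1, Sall1, Sall4, Irx3, Irx5, Emx2 and Grem1), 16 had their TSS in H3K27me3, 8 in H3K27ac and 6 in both. Of their 12 H3K27ac loci 0 were called by limma, against 0.679% of all loci, and 2 had an unadjusted p under 0.05, against 12.1%. Of their 17 H3K27me3 loci 3 were called, all lower in old cells, against 0.436% of all loci. An unadjusted p under 0.05 was reached by 12 of the 17, against 14.4%. All of these but Fgf10 (log2 fold change 0.46, SE 0.16) were lower in old cells. This list was chosen with earlier results of these data known. The called loci were Irx3 (log2 fold change -0.43, SE 0.08, limma adjusted p = 0.0235), a proximal limb factor, Isl1 (-0.54, SE 0.11, 0.0318), which precedes hindlimb outgrowth, and Sall1 (-0.37, SE 0.08, 0.0371), a zinc finger factor mutated in Townes-Brocks syndrome. The median H3K27me3 change of these 17 loci was -0.24, of the same sign as at Tbx3 and Tbx5 and opposite to Tbx4. Over all H3K27me3 loci the median was -0.035 and 40.31% were above 0.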

How the data were processed

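Per the labels, reads were processed with Bowtie2 and Picard on mm10 (GRCm38), without stated settings or duplicate treatment. The authors deposited 1 table per mark of signal per replicate in regions called on old and young samples together, in bins of 500 bp. The table name says RPKM, but the deposited signal was not divided by region length: 100% of values were whole multiples (within 0.01 read) of the RPKM of 1 read at 0.5 kb. Whole reads were thus recovered, and tests planned for RPKM were kept. Of columns with values, 0 were unused. Yeast DNA added as a spike-in was not analysed here.

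Genes and TSSs came from protein-coding transcripts of GENCODE vM21 basic. Signals were scaled by the median of ratios, and log2(signal + 0.5), 0.5 being the pseudocount, was modelled in limma 3.58.1 (R 4.3.3) with trend and robust moderation, two-sided, without a replicate block. P-values were adjusted by Benjamini and Hochberg over all 31617 H3K27ac or 28047 H3K27me3 regions, or over all 17226 or 17422 loci, and calls were made at 0.05. A locus is the summed signal of all regions that overlap a gene body plus 50 kb, each region being counted whole. Low regions were not filtered. The tables were normalised separately, so the marks were not tested against each other. Named regions were, per gene and mark, that over or nearest the TSS within 10 kb, that with most reads and each called one. Further regions were described after their values were seen. The genes, the lists and the marker sets were chosen with earlier results of these data known. Part of the list of limb patterning factors is not reported here. Alternatives were the signal as deposited, TMM scaling, pseudocounts of 0.1 and 2, removal of the lowest 25% of regions, limma without trend, edgeR 4.0.16 and DESeq2 1.42.0 on recovered reads, a replicate block, flanks of 10 and 100 kb, and leaving out each library. The fits were tested on simulated data. Depth limits small regions: intervals and floors cover counting error only.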

Additional observations from a re-analysis of the deposited data

How the results depend on the processing

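The deposited signal lowered the median log2 fold change of all regions by 0.11 in H3K27ac and 0.12 in H3K27me3, and TMM scaling moved it by less than 0.01. H3K27ac regions called numbered 0, and 1 on the signal as deposited, with a pseudocount of 2, without the lowest 25%, in edgeR and with the replicate block (0 to 1 with a library left out), in each case that over the Tbx4 TSSs. H3K27ac loci called numbered 0, and 1 without the lowest 25% and 1 with flanks of 10 kb (0 to 2 with a library left out). H3K27me3 regions called numbered 1, and 3 on the signal as deposited and in edgeR, 2 with the replicate block and 0 in limma without trend and robust moderation (0 to 2 with a library left out). H3K27me3 loci called numbered 0, and 2 on the signal as deposited and in DESeq2, 1 in edgeR and 1 with flanks of 10 kb (0 to 1 with a library left out). The shares of all regions and loci called under these alternatives are not given here. The median of H3K27me3 member regions, 0.03, became -0.077 on the signal as deposited and -0.21 with flanks of 10 kb (-0.10 to 0.063 with a library left out). With flanks of 10 kb the balance difference was -0.10 at Tbx2, 0.89 at Tbx3 and -0.089 at Shox2.

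Several directions turned. On the signal as deposited, H3K27me3 became -0.070 at the Tbx18 locus, -0.056 at its main region and -0.017 at the Pitx1 region. With flanks of 10 kb, the H3K27me3 locus went from 0.20 to -0.29 at Tbx2 and from 0.18 to -0.14 at Shox2. With a library left out, H3K27ac at Prrx1 ran from -0.15 to 0.019 for the locus and from -0.13 to 0.024 for the main region. H3K27me3 ran from -0.017 to 0.235 at the Pitx1 locus, from -0.051 to 0.23 at its region, and from -0.0084 to 0.12 at the Tbx18 region. The cause was not tested. The correlation of same-numbered young and old deviations was -0.05 to 0.07 in H3K27ac and -0.08 to 0.04 in H3K27me3. Some samples correlated best with their own number and others did not. These values cannot decide whether the replicate numbers pair the samples, because counting noise in small regions also lowers such correlations. With the replicate block, the Tbx4 H3K27ac region had an adjusted p of 0.0299. Regions with few reads, such as the Tbx5 H3K27ac region with 8 to 28 per library, allow only large differences to be seen.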
